A study of Mus musculus with 70 samples.

Results

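The comparison asked how the non-immune cells of untreated, distant (histotripsy-abscopal) B16F10 melanomas differed between day 7 and day 3 after the opposite tumor had been ablated. Its members were the CD45- libraries whose labels give the abscopal tumor and day 7 or day 3, which were 11 of the 70 libraries of the series, 4 on day 7 and 7 on day 3. B16F10 is a pigmented mouse melanoma cell line, and it was grown under the skin of both flanks of male and female C57BL/6 mice of 6 to 8 weeks with an intact immune system. Partial histotripsy, which breaks tissue mechanically with focused ultrasound, was given to 1 flank tumor on day 10 after inoculation, and days are counted from that ablation. The control libraries came from mice given a sham ablation, 4 on day 3 and 11 on day 7, and served here only to show whether a difference between the days was also present without histotripsy. Tumors were dissociated and cells were flow-sorted by CD45, the surface protein of blood-derived cells, so that the CD45- fraction holds melanoma cells together with fibroblasts, vessel cells and other cells that lack CD45. The labels do not say which mouse a library came from, so the p-values measure the spread between these libraries. The 2 days stand in separate deposited tables and no batch is given, so day and any batch shared by a table cannot be told apart.

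Melanoma cells of this line carry the pigment program of melanocytes, which the transcription factor MITF drives and which includes the enzymes of melanin synthesis and the channel gene Trpm1. Their signalling from cytokines runs through receptors, JAK kinases and STAT factors, and the SOCS proteins are made in response and switch that signalling off. Cells short of amino acids or with misfolded protein in the endoplasmic reticulum switch on ATF4 and its target Ddit3 (CHOP), and DNA damage switches on Cdkn1a through p53. These programs were described one by one, beside markers of the other cell types that a CD45- sort can hold.

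Between 1080212 and 3820705 counts were assigned per library on day 3 (median 2871461) and between 1575433 and 3075353 on day 7 (median 2596752), by a method that reads the 3' end of each transcript. The sort was visible in its markers. Ptprc, the gene of CD45, had at most 1 count in any of the 11 libraries, against 812 to 1166 counts per 1000000 counts of the library (CPM) in the 11 CD45+ libraries of the same tumors. Genes of the melanocyte list summed to between 37849 and 45602 CPM in the CD45- libraries and to between 349 and 3139 CPM in the CD45+ libraries. The summed markers of T cells stayed at or under 6.48 CPM, those of macrophages at or under 9.05 CPM and those of neutrophils at or under 1.30 CPM. Those sums were at least 1063, 4065 and 484 CPM in the CD45+ libraries. Summed over 4 genes of the Y chromosome, each CD45- library had between 2 and 16 counts. Replicates 1 and 2 of day 7 held more transcripts of connective tissue and vessels than any day 3 library, as given with the stromal genes. In bulk libraries, more cells of a type and more RNA per cell cannot be told apart. The median of each gene list was therefore also computed without these 2 libraries.

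Few genes differed between the days in edgeR's test. Of 11010 genes with enough counts to be tested, 9 (0.0817%) passed an adjusted p of 0.05 in edgeR's quasi-likelihood test, 4 higher on day 7 (0.0363%) and 5 lower (0.0454%), and 1193 (10.8%) had an unadjusted p under 0.05. Trpm1, Socs3, Enc1 and Adgre5 rose. Espn, Ddit3, Gys1, Snhg20 and Pak3 fell. DESeq2 called 43 genes, 15 higher and 28 lower, with the 9 among them, and limma-voom called 13, 6 higher and 7 lower. With library totals in place of TMM scaling 7 passed, 6 higher and 1 lower, 5 of them among the 9. The CPM of day 7 and day 3 did not overlap for 1.69% of the tested genes, 1.37% higher and 0.318% lower on day 7, and after TMM scaling for 0.808% higher and 0.799% lower. Among control tumors, 0 of the same 11010 genes (0.0%) passed between day 7 and day 3 in edgeR's test, with 497 (4.51%) at an unadjusted p under 0.05, 2.32% higher and 2.2% lower, while DESeq2 called 2 and limma-voom 0. The median standard error of a log2 fold change was 0.17 in the abscopal and 0.16 in the control comparison. In simulated libraries of the same sizes, 99 genes were changed 2-fold and 100 genes 4-fold in the abscopal day 7 group only. The abscopal comparison then called 80.8% and 99% of them. Genes were drawn independently and more were changed than were called here, so these shares need not hold for the real libraries. The control comparison was not simulated. The changes of the 2 kinds of tumor differed in edgeR's test of the interaction for 1 gene (0.00908%), Espn, with 826 genes (7.5%) at an unadjusted p under 0.05, 3.94% above 0 and 3.56% below. DESeq2 called 10 genes in the interaction and limma-voom 2.

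**Figure D1:**
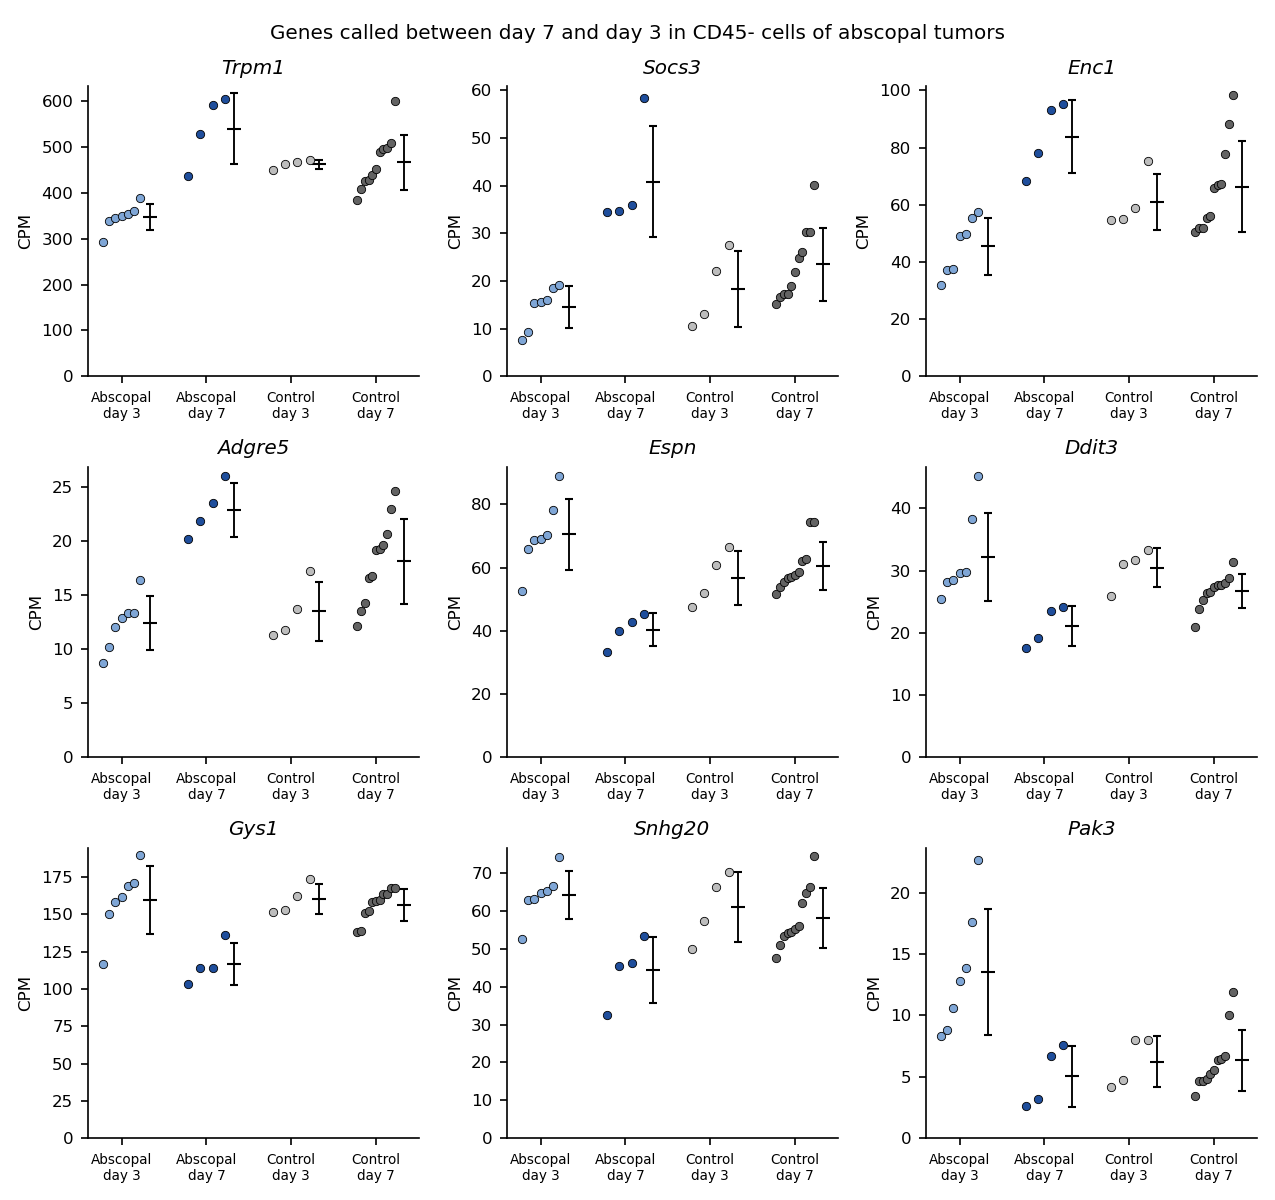
CPM of the 9 genes that differed between day 7 and day 3, in every abscopal library (blue) and every control library (gray); each point is a library, and the bar beside each group gives its mean and SD. All 4 abscopal day 7 libraries lie above all 7 of day 3 for Trpm1, Socs3, Enc1 and Adgre5 and below them for Espn, Ddit3 and Pak3, while the groups overlap for Gys1 and Snhg20.

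The upstream sequences of 3 of the called genes are shown, since each belongs to a program described below: Trpm1 to pigment cells, Socs3 to cytokine signalling and Ddit3 to stress. They are the 250 bases before each RefSeq start on GRCm38.p6, 5' to 3' on the gene's strand. RefSeq starts can differ from the ends of the annotated loci given below. The windows of Trpm1 start 2 and Socs3 lie inside those loci, and that of Ddit3 overlaps its locus in part. Capitals mark CATGTG or CACGTG, letters that MITF is known to bind, in Trpm1, TTCNNNGAA, the letters of a STAT site, in Socs3, and CCAAT, read as its reverse complement ATTGG, in Ddit3.
Trpm1 start 1, chr7:64153585-64153834, plus strand: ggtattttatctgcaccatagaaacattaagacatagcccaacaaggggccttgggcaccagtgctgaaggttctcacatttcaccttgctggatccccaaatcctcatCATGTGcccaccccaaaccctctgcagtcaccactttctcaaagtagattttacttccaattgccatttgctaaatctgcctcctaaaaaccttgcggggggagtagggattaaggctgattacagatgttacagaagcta
Trpm1 start 2, chr7:64185209-64185458, plus strand: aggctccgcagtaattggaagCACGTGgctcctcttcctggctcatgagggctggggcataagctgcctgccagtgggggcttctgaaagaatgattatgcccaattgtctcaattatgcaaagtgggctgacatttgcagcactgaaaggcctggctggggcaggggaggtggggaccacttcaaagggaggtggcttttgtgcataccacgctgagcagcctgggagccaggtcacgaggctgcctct
Socs3, chr11:117969367-117969616, minus strand: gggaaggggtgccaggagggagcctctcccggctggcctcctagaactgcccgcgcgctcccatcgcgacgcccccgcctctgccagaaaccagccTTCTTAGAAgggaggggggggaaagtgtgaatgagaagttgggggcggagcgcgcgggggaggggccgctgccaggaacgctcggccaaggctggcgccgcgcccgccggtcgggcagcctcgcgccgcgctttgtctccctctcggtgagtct
Ddit3, chr10:127290543-127290792, plus strand: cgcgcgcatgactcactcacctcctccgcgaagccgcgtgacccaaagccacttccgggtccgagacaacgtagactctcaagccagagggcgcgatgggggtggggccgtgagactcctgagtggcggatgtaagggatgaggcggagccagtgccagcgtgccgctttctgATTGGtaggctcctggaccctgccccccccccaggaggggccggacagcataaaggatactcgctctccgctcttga
Both strands were searched in the windows of the same length before all 32851 RefSeq starts of the table. CATGTG was held by 12.3% of them, CACGTG by 6.02%, TTCNNNGAA by 7.02% and CCAAT by 33.8%. A match describes these letters only, and reads at the 3' end of transcripts do not tell which Trpm1 start was used.

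Trpm1, a cation channel gene of melanocytes and a target of MITF, lies at chr7:64153835-64269775 on GRCm38. On day 7 it had 528, 437, 605 and 592 CPM in replicates 1 to 4, and on day 3 it ranged from 293 to 389.5 CPM (median 349). All 4 day 7 libraries lay above all day 3 libraries. The means were 540.3 ± 76.9 CPM (SD, n = 4) and 347 ± 28.9 CPM (SD, n = 7) (log2 fold change 0.57, SE 0.10, adjusted p = 0.00901, edgeR's quasi-likelihood test). In control tumors Trpm1 ranged from 449 to 471 CPM on day 3 and from 385 to 600.0 CPM on day 7, a log2 fold change of 0.01 (SE 0.10). The abscopal libraries of day 3 thus lay below every control library of the same day, and those of day 7 overlapped the control libraries. The abscopal change exceeded the control change by 0.57 on the log2 scale (SE 0.14, adjusted p = 0.291 in edgeR), which did not pass.

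No other gene of the pigment program passed. Of 21 tested genes of the melanocyte list, 1 passed, Trpm1, and the median log2 fold change was 0.12 against 0.00 over all genes tested. The median of the list was 0.042 to 0.139 when 1 library was left out. Slc45a2, a transporter of the melanosome, had 492, 525, 613 and 621 CPM on day 7 and ranged from 410.1 to 469 CPM (median 446) on day 3, without overlap, at an adjusted p of 0.191 in edgeR. Mc1r, the receptor for melanocyte-stimulating hormone, had a log2 estimate of 0.28 (adjusted p = 0.226 in edgeR). Estimates were 0.10 for Mitf itself, 0.19 for the fibril protein gene Pmel, 0.05 for tyrosinase (Tyr) and -0.18 for dopachrome tautomerase (Dct), with standard errors of 0.11, 0.10, 0.09 and 0.11. None of these 4 passed. Their levels on day 7 overlapped those of day 3, and so did the sums of the whole list.

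Socs3, whose product inhibits JAK and STAT3 signalling, showed the largest increase among the called genes. It lies at chr11:117966079-117970047. Day 7 libraries had 34.8, 34.4, 35.9 and 58.4 CPM in replicates 1 to 4, and day 3 libraries ranged from 7.66 to 19.1 CPM (median 15.7). The groups did not overlap, and replicate 4 of day 7 stood above the other 3. The means were 40.9 ± 11.7 CPM (SD, n = 4) and 14.5 ± 4.38 CPM (SD, n = 7) (log2 fold change 1.43, SE 0.24, adjusted p = 0.00901 in edgeR). The control libraries ranged from 10.5 to 27.6 CPM on day 3 and from 15.1 to 40.1 CPM on day 7, with a log2 fold change of 0.34 (SE 0.25). The test of the difference between both changes had an adjusted p of 0.503 in edgeR and did not pass.

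Socs3 belongs to the genes that cells switch on within a short time of a stimulus. Among 25 tested immediate early genes, 1 passed, Socs3, with 8 higher and 1 lower at an unadjusted p under 0.05 (5.52% and 5.31% of all genes). In control tumors all 25 estimates were above 0, with 14 higher and 0 lower at that threshold (2.32% and 2.2% of all genes). Egr2, a zinc finger factor, had 9.43, 6.3, 7.47 and 3.17 CPM on day 7 and ranged from 0.966 to 4.26 CPM (median 2.78) on day 3, overlapping in replicate 4 (log2 estimate 1.38, adjusted p = 0.0648 in edgeR). Dusp1, a phosphatase that acts on MAP kinases, had 66.0, 51.6, 78.3 and 62.2 CPM against a day 3 range from 29.3 to 47.7 CPM (median 33.3), without overlap, at an adjusted p of 0.149. The median of the list was 0.13 in abscopal and 0.51 in control tumors, and without replicates 1 and 2 of day 7 the abscopal median was 0.47. Atf3, a stress factor of the same list, differed in sign between both kinds of tumor, with log2 estimates of -0.50 (SE 0.29) in abscopal and 0.70 (SE 0.29) in control tumors. Neither estimate passed, nor did the interaction of -1.20 (SE 0.41), and the abscopal estimate was -0.10 without replicates 1 and 2 of day 7.

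Espn had the smallest p of all genes tested, and in the fit of the 4 groups its change differed between abscopal and control tumors. It encodes espin, a protein that bundles actin filaments, and lies at chr4:152120331-152152371. On day 7 it had 33.2, 45.3, 42.7 and 40.0 CPM in replicates 1 to 4, and on day 3 it ranged from 52.7 to 89.0 CPM (median 69.0), so that every day 7 library was lower. The means were 40.3 ± 5.23 CPM (SD, n = 4) and 70.5 ± 11.2 CPM (SD, n = 7) (log2 fold change -0.88, SE 0.13, adjusted p = 0.000456 in edgeR). Control libraries ranged from 47.4 to 66.4 CPM on day 3 and from 51.6 to 74.4 CPM on day 7 (log2 fold change 0.09, SE 0.11). The abscopal minus the control change was -0.97 on the log2 scale (SE 0.17, adjusted p = 0.0228 in edgeR). All abscopal libraries of day 7 lay below all 15 control libraries. Without replicates 1 and 2 of day 7 the log2 fold change of Espn was -0.86 (adjusted p = 0.0436 in edgeR). The interaction was then -0.95 and did not pass (adjusted p = 0.165 in edgeR), nor did it with library totals in place of TMM scaling (-0.91, adjusted p = 0.117). It passed in 9 of 15 fits that each left out 1 abscopal or 1 control day 3 library and ranged from -1.04 to -0.89. Its adjusted p in edgeR was 0.0560 without replicate 3 and 0.0540 without replicate 7 of abscopal day 3, 0.227 without replicate 1 and 0.0824 without replicate 4 of abscopal day 7, and 0.102 without replicate 1 and 0.0810 without replicate 2 of control day 3.

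The other increases were in genes of the cytoskeleton and the cell surface. Enc1, an actin-binding adaptor of a ubiquitin ligase (chr13:97241105-97253034), had 78.0, 68.4, 93.2 and 95.2 CPM on day 7 and ranged from 31.9 to 57.4 CPM (median 49.1) on day 3. The groups did not overlap (log2 fold change 0.82, SE 0.16, adjusted p = 0.0403 in edgeR). Adgre5, the adhesion receptor CD97 (chr8:83723251-83741326), had 20.2, 21.8, 26.0 and 23.5 CPM on day 7 against a range from 8.69 to 16.4 CPM (median 12.9) on day 3, again without overlap (log2 fold change 0.82, SE 0.17, adjusted p = 0.0403 in edgeR). CD97 is also abundant on leukocytes, and Ptprc had 0 counts in all 4 day 7 libraries. Which cells the Adgre5 transcripts came from was not tested. Control tumors had estimates of 0.13 for Enc1 (SE 0.15) and 0.42 for Adgre5 (SE 0.17), which had an unadjusted p of 0.0175 in edgeR. The control libraries of day 7 reached the abscopal range for both genes.

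Pak3, a p21-activated kinase (chrX:143518591-143797796), had the largest decrease among the called genes and the fewest counts. It had 2.60, 6.72, 3.20 and 7.62 CPM in replicates 1 to 4 of day 7 and ranged from 8.36 to 22.6 CPM (median 12.8) on day 3, with no overlap (log2 fold change -1.54, SE 0.32, adjusted p = 0.0419 in edgeR). Control libraries ranged from 4.16 to 8.02 CPM on day 3 and from 3.47 to 11.9 CPM on day 7. Of the 4 groups, abscopal day 3 had the highest mean. Gys1, the glycogen synthase of muscle and most other tissues (chr7:45434844-45456619), and Snhg20, a long noncoding RNA that hosts a small nucleolar RNA (chr11:117076008-117078955), also fell, but their CPM overlapped between days, so both lay outside the rule for named genes and were chosen after their values were seen. Gys1 had 103, 114, 136 and 114 CPM on day 7 against a range from 117 to 190.0 CPM (median 161) on day 3 (log2 fold change -0.51, SE 0.11, adjusted p = 0.0413 in edgeR). Snhg20 had 32.5, 53.3, 45.5 and 46.3 CPM on day 7 against a range from 52.5 to 74.1 CPM (median 64.6) on day 3 (log2 fold change -0.59, SE 0.12, adjusted p = 0.0419 in edgeR).

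Espn, Socs3 and Trpm1 passed in all 11 fits that each left out 1 abscopal library, with adjusted p-values of at most 0.0216, 0.0424 and 0.0491 in edgeR. The other 6 genes passed in 3 to 5 of the 11. Socs3 did not pass in a fit of all CD45- groups (adjusted p = 0.142 in edgeR) and Trpm1 did not in a fit of the abscopal groups alone (adjusted p = 0.0839), while Espn passed in both. The number of genes called was 18 without replicate 4 of day 3, 3 without replicate 6, 4 without replicate 3 and 5 without replicate 1 of day 3, and 4 without replicate 1 and 5 without replicate 2 of day 7. Of the 9 genes, these 3 passed without replicates 1 and 2 of day 7 together, when Trpm1 had a log2 fold change of 0.69 and Socs3 of 1.6.

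Ddit3 encodes CHOP, a transcription factor made under endoplasmic reticulum stress or amino acid shortage, and its annotated locus is chr10:127290774-127296288. The tables hold another line for this symbol, which had 0 counts in all of these libraries. Day 7 libraries had 19.2, 17.6, 23.5 and 24.1 CPM in replicates 1 to 4 and day 3 libraries ranged from 25.4 to 45.3 CPM (median 29.6). Every day 7 library was lower (log2 fold change -0.68, SE 0.14, adjusted p = 0.0403 in edgeR). Control libraries ranged from 25.9 to 33.3 CPM on day 3 and from 21.0 to 31.4 CPM on day 7 (log2 fold change -0.20, SE 0.13).

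Other genes of the stress response did not pass. Of 26 tested genes of the chaperone and unfolded protein list, 1 passed, Ddit3. At an unadjusted p under 0.05, 1 was higher and 5 were lower (5.52% and 5.31% of all genes). The median was -0.01, and -0.09 without replicates 1 and 2 of day 7. Atf4, the factor upstream of Ddit3, had 1091, 1277, 1293 and 1352 CPM on day 7 and ranged from 1306 to 2288 CPM (median 1414) on day 3 (log2 estimate -0.39, adjusted p = 0.191 in edgeR). Herpud1, a component of the disposal of misfolded proteins, had an estimate of -0.40 (adjusted p = 0.313 in edgeR). Hspa5, the main chaperone of the endoplasmic reticulum, had -0.14 in abscopal (SE 0.12) and 0.23 in control tumors (SE 0.11). Heat shock chaperones had 2 of 22 genes higher at an unadjusted p under 0.05 (5.52% of all genes) and none past the adjusted threshold. The median was 0.08, or 0.14 without both libraries. Control tumors had a median of 0.14 for these chaperones, with 18 of 22 estimates above 0 and 6 higher at an unadjusted p under 0.05 (2.32% of all genes). The 3 smallest p-values of the list in abscopal tumors belonged to Hspd1 (0.26), a mitochondrial chaperonin, Fkbp4 (0.24) and Cacybp (0.22).

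Targets of p53 had estimates below 0 in 13 of 15 tested genes, where 50.4% of all genes tested had estimates above 0. Their median was -0.23 against 0.17 in control tumors, and none passed. Cdkn1a, the cyclin-dependent kinase inhibitor p21, had 165, 214, 169 and 155 CPM on day 7 and ranged from 195 to 355 CPM (median 229) on day 3, overlapping in replicate 2 only (log2 estimate -0.59, SE 0.14, adjusted p = 0.0725 in edgeR). In control tumors its estimate was 0.19 (SE 0.13), and the interaction had an adjusted p of 0.291 in edgeR. Phlda3 and Gadd45a, which p53 also activates, had estimates of -0.40 and -0.42 (adjusted p = 0.397 and 0.492 in edgeR). The median of the list was -0.20 without replicates 1 and 2 of day 7. Trp53 itself, the gene of p53, had 18.9, 19.7, 34.1 and 33 CPM on day 7 and ranged from 11.7 to 22.2 CPM (median 15) on day 3 (log2 estimate 0.68, adjusted p = 0.147 in edgeR).

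Genes of DNA replication and division had no call. Estimates were above 0 in 32 of 37 tested cell cycle genes, against 50.4% of all genes tested. At an unadjusted p under 0.05, 12 were higher and 0 lower (5.52% and 5.31% of all genes), and none passed the adjusted threshold. The median was 0.18 in abscopal and 0.01 in control tumors. The 3 smallest p-values belonged to genes of replication licensing. Mcm4 had 60.2, 47.0, 68.7 and 52.0 CPM on day 7 and ranged from 29.6 to 45.9 CPM (median 39.4) on day 3, without overlap (log2 estimate 0.50, adjusted p = 0.198 in edgeR). Mcm2 had an estimate of 0.43 (adjusted p = 0.164 in edgeR), and Cdc6, which loads the MCM helicase, one of 0.60 (adjusted p = 0.238 in edgeR). Mki67, a marker of dividing cells, had 78.4, 77.7, 76.8 and 96.5 CPM on day 7 against a range from 60.5 to 90.2 CPM (median 75.3) on day 3 (log2 estimate 0.06, SE 0.13). Without replicates 1 and 2 of day 7, 27 of 37 estimates stayed above 0, with a median of 0.12.

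**Figure D2:**
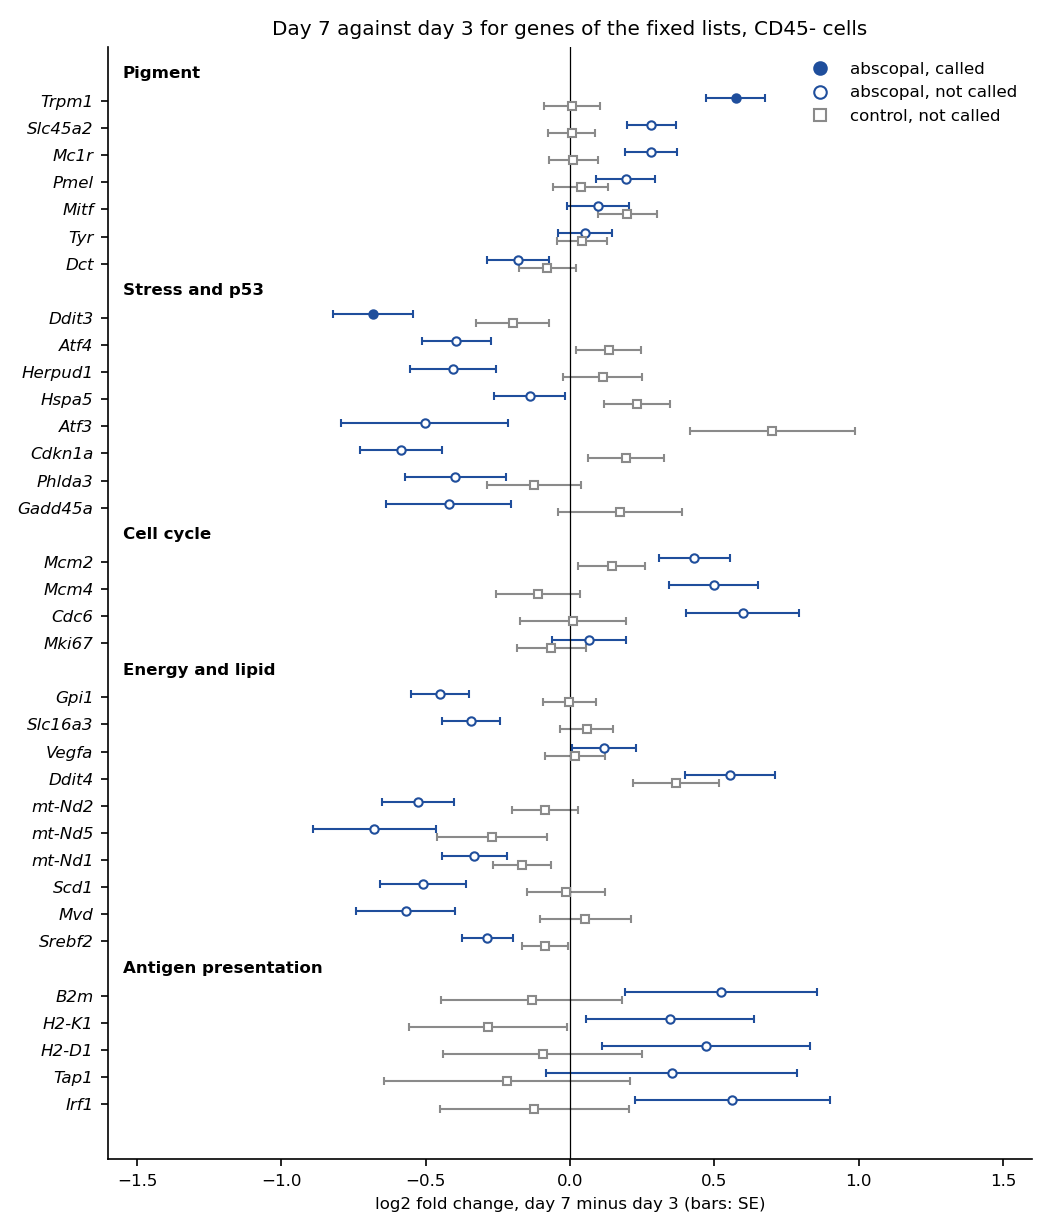
Log2 fold change of day 7 over day 3, with its standard error, for named genes of 5 programs in abscopal (blue circles) and control tumors (gray squares). Filled circles mark the genes that passed, Trpm1 and Ddit3; the other genes are drawn open, and the abscopal estimates of Cdkn1a and Atf4 lie below 0 while those of the control tumors lie above it.

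Energy metabolism showed no called list member, Gys1 lying outside these lists. For glycolysis and hypoxia, 11 of 37 tested genes were lower and 1 higher at an unadjusted p under 0.05 (5.31% and 5.52% of all genes). The median was -0.08. Gpi1, the second enzyme of glycolysis, had 568, 676, 561 and 654 CPM on day 7 and ranged from 671 to 1018 CPM (median 774) on day 3 (log2 estimate -0.45, adjusted p = 0.0596 in edgeR). Slc16a3, which exports lactate, had an estimate of -0.34 (adjusted p = 0.177 in edgeR). Vegfa, which hypoxia induces and which drives vessel growth, had 0.12 (SE 0.11). Ddit4, an inhibitor of mTOR signalling and the gene of the list that was higher, had 145, 173, 205 and 139.6 CPM on day 7 against a range from 86.1 to 137 CPM (median 102) on day 3 (log2 estimate 0.55, adjusted p = 0.168 in edgeR). In control tumors the estimate of Ddit4 was 0.37 (unadjusted p = 0.0204 in edgeR).

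Messenger RNAs of the mitochondrial genome had estimates below 0 in all 7 tested genes. Each had an unadjusted p under 0.05 (5.31% of all genes were lower at that threshold), and none passed the adjusted threshold. Their median was -0.49 in abscopal tumors and -0.29 in control tumors, where 1 of the 7 had an unadjusted p under 0.05. The genes are transcribed together, so they are not independent. mt-Nd2, a subunit gene of respiratory complex I, had 2893, 2818, 3096 and 3039.8 CPM on day 7 and ranged from 3219.8 to 4658 CPM (median 4273) on day 3, without overlap (log2 estimate -0.53, adjusted p = 0.0691 in edgeR). mt-Nd5 had an estimate of -0.68, also without overlap, and mt-Nd1 one of -0.33 (adjusted p = 0.226 and 0.264 in edgeR). The median without replicates 1 and 2 of day 7 was -0.49. Respiratory chain genes of the nucleus had a median of -0.09 in abscopal and -0.08 in control tumors over 88 genes, and an abscopal median of -0.18 without both libraries, with Cox6a1 (-0.31), Ndufaf4 (-0.27) and Cox7a1 (-0.74) at the smallest p and none past the threshold. Cytosolic ribosomal protein genes had a median of 0.05 over 80 genes, led by Rps4x (0.34), Rpl5 (0.40) and Rpl3 (0.24), again with none called. This median was -0.012 to 0.118 when 1 library was left out. In control tumors it was -0.11, with 9 of 80 estimates above 0.

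Sterol and fatty acid synthesis genes had estimates below 0 in 22 of 24 tested members, where 50.4% of all genes tested had estimates above 0. The median was -0.17 in abscopal tumors and 0.11 in control tumors. At an unadjusted p under 0.05, 6 genes were lower (5.31% of all genes), and none passed. Scd1, which desaturates fatty acids, had 126, 125, 102 and 126 CPM on day 7 and ranged from 134 to 185 CPM (median 167) on day 3, without overlap (log2 estimate -0.51, adjusted p = 0.177 in edgeR). Mvd, an enzyme of the mevalonate pathway, had an estimate of -0.57, and Srebf2, the factor that drives this pathway, one of -0.29 (adjusted p = 0.191 and 0.197 in edgeR). Lysosome and autophagy genes had a median of -0.06 over 25 genes, and of -0.022 without replicates 1 and 2 of day 7. Those with the smallest p were the sialidase Neu1 (-0.34), the channel Mcoln1 (-0.53) and Gabarapl1 (-0.30), and none passed.

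Antigen presentation genes had estimates above 0 that did not pass. In the MHC class I list, 14 of 15 tested genes had estimates above 0, against 50.4% of all genes tested, with a median of 0.35. Of the 15 genes, 0 were called in edgeR's test and 0 had an unadjusted p under 0.05. B2m, the light chain of class I molecules, had 1603, 1512, 1332 and 2033 CPM on day 7 and ranged from 656 to 1549 CPM (median 1208) on day 3 (log2 estimate 0.52, SE 0.33, adjusted p = 0.594 in edgeR). The heavy chains H2-K1 and H2-D1 had estimates of 0.35 (SE 0.29) and 0.47 (SE 0.36). Tap1, which carries peptides into the endoplasmic reticulum, had 0.35 (SE 0.43), Erap1, which trims them, 0.43 (SE 0.23) and Psme2, a proteasome activator subunit, 0.35 (SE 0.24). Control tumors had a median of -0.22 for the same list, with 0 of 15 estimates above 0. The interaction passed for 0 members and had an unadjusted p under 0.05 for 1, Psme2. The abscopal median was 0.36 without replicates 1 and 2 of day 7.

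Genes that interferon gamma induces had a median of 0.30 over 22 tested genes, 21 of them above 0 (50.4% of all genes) and none called. The median was 0.10 to 0.37 when 1 library was left out. Without replicates 1 and 2 of day 7 the median was 0.20, with 15 above 0. Irf1, a transcription factor that interferons induce, had 67.0, 61.7, 51.6 and 71.7 CPM on day 7 and ranged from 18.6 to 62.0 CPM (median 46.9) on day 3 (log2 estimate 0.56, SE 0.34). The checkpoint ligand gene Cd274 had an estimate of 0.03 (SE 0.40) and the chemokine Cxcl10 0.30 (SE 0.48). Cxcl9, a chemokine that draws T cells, had 106, 36.1, 1.07 and 5.71 CPM on day 7, so that replicates 1 and 2 stood above the day 3 range, which went from 1.6 to 11.1 CPM (median 5.57), and replicate 3 below it (log2 estimate 2.68, adjusted p = 0.185 in edgeR). The receptor genes Ifngr2 and Ifngr1 had estimates of 0.52 and 0.31 (adjusted p = 0.351 and 0.517 in edgeR). The type I interferon list had a median of 0.01, with 18 of 36 estimates above 0 none at an unadjusted p under 0.05 and a median of -0.18 without both libraries. Its smallest p-values were those of Isg20 (-0.69), Mx2 (-0.69) and the receptor gene Ifnar2 (0.23). MHC class II genes, of which 6 were tested, had a median of 0.66 in abscopal and -0.22 in control tumors. The abscopal median was 0.83 without replicates 1 and 2 of day 7. H2-DMb1, H2-Ab1 and H2-Eb1 had estimates of 0.84, 0.83 and 0.77 with standard errors of 0.41, 0.65 and 0.64.

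Checkpoint and NK cell ligands had a median of 0.02 over 8 genes, and of -0.10 without replicates 1 and 2 of day 7. Pvr, a ligand of NK cell and T cell receptors, had -0.29 (adjusted p = 0.338 in edgeR), Ulbp1, a ligand of NKG2D, 0.43 (SE 0.29) and the death receptor gene Tnfrsf10b 0.25 (SE 0.23).

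Necroptosis and ferroptosis were among the forms of cell death that the study examined. Ferroptosis is death by iron-dependent oxidation of lipids, which GPX4 and the cystine importer SLC7A11 prevent. Of 31 tested genes of the ferroptosis and glutathione list, none passed. At an unadjusted p under 0.05, 3 were higher and 3 lower (5.52% and 5.31% of all genes). The median was 0.04, or 0.0094 without replicates 1 and 2 of day 7. Estimates were -0.26 (SE 0.42) for Gpx4, 0.02 (SE 0.35) for Slc7a11 and 0.04 (SE 0.14) for Acsl4, which makes the lipids that are oxidized. The transferrin receptor gene Tfrc had 461, 615, 549 and 444 CPM on day 7 and ranged from 508 to 772 CPM (median 555) on day 3 (log2 estimate -0.24, adjusted p = 0.447 in edgeR). Hmox1, the heme oxygenase, had -0.33 (SE 0.28). Nfe2l2, the gene of the antioxidant factor NRF2, had 0.26 and Cisd1, a mitochondrial iron-sulfur protein, -0.26 (adjusted p = 0.267 and 0.342 in edgeR). Ptgs2 had too few counts to be tested, at most 1.85 CPM on day 3 and 2.28 CPM on day 7.

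The necroptosis and pyroptosis list had a median of 0.01 over 15 genes and no call. Mlkl, which breaks the cell membrane in necroptosis, had 25.7, 31.9, 21.7 and 34.9 CPM on day 7 and ranged from 12.8 to 28.9 CPM (median 22.2) on day 3 (log2 estimate 0.33, SE 0.20). Ripk3, the kinase that activates it, was too low to be tested. It had 1.95, 1.68, 0 and 1.90 CPM on day 7 and ranged from 0 to 0.697 CPM (median 0.348) on day 3. Hmgb1, a danger signal released by dying cells, had 158, 156, 128 and 163 CPM on day 7 and ranged from 139 to 183 CPM (median 155) on day 3 (log2 estimate -0.13, SE 0.14), and its messenger RNA does not show where the protein lies. The inhibitor of apoptosis gene Birc2 had -0.55, the adaptor Tradd -0.23 and the pore-forming Gsdmd 0.60 (adjusted p = 0.458, 0.565 and 0.569 in edgeR).

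**Figure D3:**
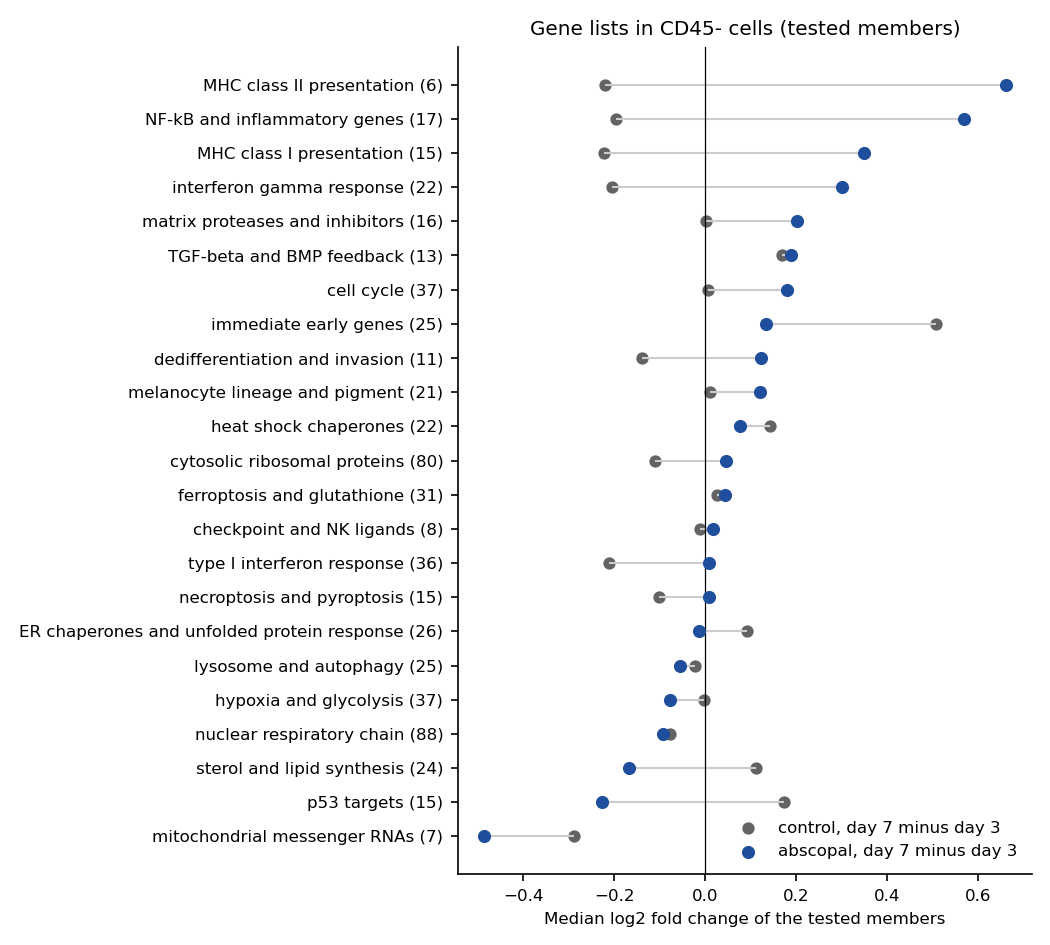
Median log2 fold change of day 7 over day 3 over the tested members of each of 23 gene lists, in abscopal (blue) and control tumors (gray), with the number of tested members after each name. Abscopal medians run from -0.49 for the mitochondrial messenger RNAs to 0.66 for the MHC class II list, and the control medians lie farthest above the abscopal ones for the p53 targets (0.17 against -0.23) and the immediate early genes (0.51 against 0.13).

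Transcripts of fibroblasts, vessels and pericytes set replicates 1 and 2 of day 7 apart. Summed over the fibroblast list, collagens and other matrix genes, the 4 day 7 libraries had 2871, 1529.7, 86.4 and 499.5 CPM, and the day 3 libraries had 167 to 907 CPM. Replicates 1 and 2 were thus above every day 3 library and replicate 3 below every one. Endothelial markers summed to 306, 132, 89.6 and 112 CPM, against 81.9 to 113 CPM on day 3. Pericyte and smooth muscle markers summed to 105, 28.1, 6.05 and 7.62 CPM, against 6.12 to 17.1 CPM. The same 2 libraries had the most Xist, the RNA of the inactive X chromosome of female cells, at 27.3, 17.2, 0.711 and 4.44 CPM on day 7 against a range from 1.76 to 5.79 CPM (median 2.79) on day 3, while the CD45+ libraries of abscopal tumors had 419 to 844 CPM. What part these transcripts had in other results was not tested beyond leaving both libraries out.

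Over 12 tested fibroblast genes the median log2 fold change was 1.18, with 12 estimates above 0 (50.4% of all genes). Of these genes, 4 had an unadjusted p under 0.05 (5.52% of all genes were higher at that threshold) and 0 were called in edgeR's test. Col1a1, a chain of type I collagen, had 860.4, 527, 20.6 and 169 CPM on day 7 and ranged from 49.1 to 312 CPM (median 159.7) on day 3 (log2 estimate 1.15, SE 0.92). Postn, a matrix protein gene, had 128, 57.1, 3.91 and 19 CPM on day 7 (log2 estimate 1.82, adjusted p = 0.349 in edgeR), and Pdgfrb and Col6a1 had estimates of 1.28 and 1.87. In each of these 4 genes replicates 1 and 2 of day 7 were the highest of the 11 libraries. Among endothelial genes Kdr and Flt1, the receptors for vascular endothelial growth factor, had estimates of 2.77 and 2.53 (adjusted p = 0.232 and 0.249 in edgeR), Pecam1 one of 1.71 and Egfl7 one of 0.50. Pericyte genes Rgs5 and Acta2 had 2.28 and 1.70 (adjusted p = 0.226 and 0.310 in edgeR). Without replicates 1 and 2 of day 7 the medians were -1.08 for fibroblast, -0.44 for endothelial and -0.84 for pericyte genes. In control tumors the medians of the same lists were -1.19, -0.32 and -0.36.

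**Figure D4:**
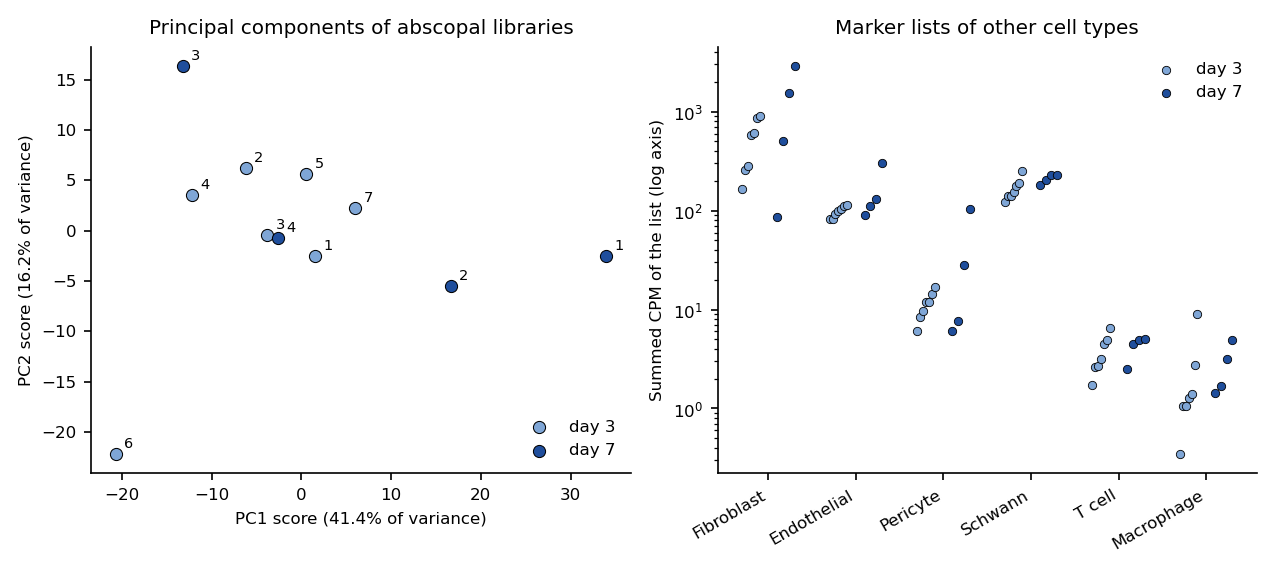
Left, scores of the 11 abscopal CD45- libraries on the first principal components, with replicate numbers; replicates 1 and 2 of day 7 lie at the high end of PC1 and replicate 6 of day 3 at the low end of both. Right, summed CPM (log axis) of marker lists in each library; the fibroblast sums of day 7 run from 86.4 to 2871 CPM, while T cell and macrophage sums stay under 10 CPM.

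The medians of the inflammatory, protease, dedifferentiation and TGF-beta lists lay on the other side of 0 without replicates 1 and 2 of day 7. The inflammatory list had a median of 0.57 over 17 genes, and -0.23 without replicates 1 and 2 of day 7. Its smallest p-values were those of Cebpb, a transcription factor (log2 estimate -0.45, adjusted p = 0.217 in edgeR), the alarmin Il33 (1.42, adjusted p = 0.264) and the chemokine Ccl5 (-0.90, adjusted p = 0.343). Il33 had 26.7, 20.1, 7.11 and 3.81 CPM on day 7, so that replicates 1 and 2 were above the day 3 range, which went from 0 to 9.40 CPM (median 6.54), and the other 2 within it. Matrix proteases and their inhibitors had a median of 0.20 and, without both libraries, of -0.12. Timp1 had 1.06 and Ctsk 0.76, while Plau, the urokinase gene, had 12.0, 9.65, 12.1 and 15.2 CPM in all 4 day 7 libraries against a range from 1.85 to 7.74 CPM (median 5.57) on day 3, without overlap (log2 estimate 1.19, adjusted p = 0.350 in edgeR). The dedifferentiation and invasion list had a median of 0.12, and of -0.23 without both libraries. Tnc, Axl and Aqp1 had estimates of 1.92, 0.97 and 1.75 (adjusted p = 0.310, 0.373 and 0.417 in edgeR).

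The TGF-beta and BMP list had a median of 0.19, and of -0.17 without both libraries. Id2, an inhibitor of basic helix-loop-helix factors, had 761, 650.2, 975 and 623 CPM on day 7 and ranged from 961 to 1259 CPM (median 1108) on day 3, overlapping in replicate 3 (log2 estimate -0.61, adjusted p = 0.0596 in edgeR). In control tumors it had -0.26 (unadjusted p = 0.0397 in edgeR). Id3 had -0.03 (SE 0.33), and Tgfb3 and Tgfb2 had 0.62 and 0.33 (adjusted p = 0.440 for both in edgeR).

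Markers of other cell types that were tested in the CD45- fraction gave no call. The estimates were 0.20 for the keratinocyte gene Sfn, 1.07, 0.41 and 0.20 for Pmp22, Mbp and Cdh19 of the Schwann cell list, which melanocytes share in part, 0.33 for the T cell gene Lck and -0.02 for the dendritic cell gene Zbtb46. Hemoglobin genes had -1.44 for Hba-a2, -0.73 for Hbb-bt and 0.39 for Hba-a1. Hba-a1 and Hba-a2 are near-identical copies whose reads can be split between them. The erythroid median was -0.38, and 0.42 without replicates 1 and 2 of day 7. No marker of skeletal muscle, adipocytes, neutrophils, macrophages, NK cells or B cells had enough counts to be tested.

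Neither leading principal component separated the days. On the 500 most variable genes, PC1 held 41.4% and PC2 16.2% of the variance of the 11 libraries. Day 7 replicates 1 to 4 scored 34, 16.6, -13.2 and -2.62 on PC1, and day 3 libraries between -20.7 and 6.01. The means differed by 13.7, a difference that 54 of the 330 ways to divide the libraries reached (two-sided exact permutation test, p = 0.164). On PC2 the means differed by 2.96 (two-sided exact permutation test, p = 0.630). Replicate 6 of day 3, the library with the fewest counts, lay apart on PC2 at -22.2. Without replicate 3 of day 7 the difference on PC1 was 21.1 (two-sided exact permutation test, p = 0.0417).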

How the data were processed

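Libraries of CD45- cells from abscopal and control (sham) B16F10 tumors on days 3 and 7 after ablation were compared. The authors made QuantSeq 3' libraries with molecular identifiers, trimmed reads with Trim Galore 0.5.0, aligned them with STAR 2.6.0 to GRCm38, collapsed identifiers and counted reads per gene with featureCounts. The deposited values were used as raw gene counts, 1 table per sort and day, and the tables were joined by symbol (55367 symbols). The sources used here give no batch. In the CD45+ tables, read only for marker sums, a line with no gene name that held the column totals was dropped. Groups came from the sample labels, and 0 columns of values lacked a sample.

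Counts of the 4 groups (11 abscopal and 15 control libraries) were fitted together in edgeR 4.0.16 (R 4.3.3) with TMM scaling, filterByExpr (minimum count 10, minimum total 15), robust quasi-likelihood dispersions and Benjamini-Hochberg adjustment over the 11010 genes kept. A gene was called at an adjusted p under 0.05. The abscopal change, the control change and their difference (interaction) were contrasts of this fit. CPM in the text are counts per 1000000 counts of the library, and log2 fold changes are the fitted values. Principal components used log10(CPM + 1) of the 500 most variable genes, turned into Z-scores for each gene. Alternatives were DESeq2 1.42.0, limma-voom (limma 3.58.1), other scalings and filters, other groups in the fit, removal of the most abundant gene, the replicate number as a block and leaving out each abscopal library. Leaving out replicates 1 and 2 of day 7 together, and each control library of day 3, was added after seeing the data. Data were simulated from these libraries with genes drawn independently and changes in the abscopal day 7 group only. In the abscopal comparison, 80.8% of 99 genes changed by 1 on the log2 scale and 99% of 100 genes changed by 2 were called. There were 5 false calls among 10895 genes.

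The named genes were a set of fixed genes, called genes with a mean of at least 10 CPM in the higher group and no overlap of CPM between groups (up to 10 in each direction), the 3 genes with the smallest p of each list, and genes called in the interaction. A gene of the fixed set is not reported here. The members and gene lists were chosen with earlier results of these data known. Positions are those of the GRCm38 annotation, with 1 entry for 10845 of the tested symbols, and upstream sequences are from RefSeq (GRCm38.p6). Figures used Python 3.11.15 and matplotlib 3.10.9. Molecular identifiers limit amplification copies, and depth limits the precision of genes with few counts.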

Additional observations from a re-analysis of the deposited data

Results flagged for a closer look

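The decrease of Espn from day 3 to day 7 differed between abscopal and control tumors, with an interaction of -0.97 on the log2 scale (adjusted p = 0.0228 in edgeR's quasi-likelihood test). It did not pass in 6 of 15 fits that each left out 1 library.

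In each group of 4 or 7 abscopal libraries, the highest or lowest value was compared with the others by Dixon's ratio. Of 275 groups of values examined, 19 had such a library, where chance flags about 1 in 20 groups. On day 7, replicate 1 stood above the others for the vessel receptor gene Flt1 (58.5 CPM, group median 6.41) and the pericyte gene Rgs5 (54.3 CPM, median 5.23). It also stood above them for the summed markers of adipocytes (34.8 CPM, median 4.74) and of keratinocytes (10.4 CPM, median 6.17). Replicate 4 of day 7 stood above the others for Socs3 (58.4 CPM, median 35.4), Mki67 (96.5 CPM, median 78.0), H2-Eb1 (31.7 CPM, median 14.9) and Hba-a1 (15.2 CPM, median 2.62). The same replicate was the low one for Tradd (19 CPM, median 25.4). Replicate 3 of day 7 was high for Herpud1 (201 CPM, median 140.3) and low for Scd1 (102 CPM, median 125) and Ripk3 (0 CPM, median 1.79).

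On day 3, replicate 4 stood above the others for Egfl7 (48.4 CPM, median 26.4), Tfrc (772 CPM, median 555) and the summed markers of monocytes and macrophages (9.05 CPM, median 1.29). Replicate 7 was high for Trp53 (22.2 CPM, median 15) and replicate 1 for Ptprc (0.348 CPM, a single count, median 0). Replicate 6, the shallowest of the abscopal libraries, was low for Rpl5 (78.7 CPM, median 139) and on PC2 (-22.2, median 2.20). The causes of these values were not tested.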

How the results depend on the processing

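The abscopal comparison called 9 genes. It called 43 with DESeq2 (15 higher, 28 lower, all 9 among them), 117 without a filter on low counts, 4 in a fit of the abscopal groups alone, 3 in a fit of all CD45- groups and 4 without replicates 1 and 2 of day 7. Leaving out 1 abscopal library gave 3 to 18 calls. With limma-voom, with DESeq2 size factors, with the stricter filter and without the most abundant gene all 9 genes were kept. The control comparison called 0 genes, 2 with DESeq2, 3 without a filter and 0 to 1 when 1 library was left out. The interaction called 1 gene, 10 with DESeq2, 2 with limma-voom, 0 with library totals, 46 without a filter, 2 with the stricter filter, 2 in a fit of all CD45- groups, 0 without replicates 1 and 2 of day 7 and 0 to 3 when 1 library was left out. The difference on PC1 was 6.77 to 21.1 when 1 library was left out, with the highest value and an exact permutation p of 0.0417 without replicate 3 of day 7. No CD45- library in the fit had under 1000000 counts, so an alternative that left out such libraries removed none.

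The labels do not say whether equal replicate numbers pair the libraries. For numbers 1 to 4, deviations from the group means correlated by 0.139, -0.133, -0.061 and -0.103 between abscopal day 3 and day 7. Between control day 3 and day 7 the values were 0.202, 0.324, 0.108 and 0.028. Between abscopal and control libraries they were 0.215, -0.032, -0.129 and 0.220 on day 3 and 0.222, 0.083, 0.141 and 0.037 on day 7. With the number as a block, 12 abscopal genes (9 higher, 3 lower, 6 of the 9 among them), 0 control genes and 0 interactions were called (adjusted p = 0.110 for Espn in edgeR). List medians with the block were 0.79 for MHC class I against 0.35 without it, 0.67 against 0.30 for interferon gamma, 0.33 against 0.0083 for type I interferon and 1.40 against 0.66 for MHC class II.

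Of the estimates for named genes under an alternative, 2872 kept their direction and their side of the threshold, 66 kept their direction but no longer passed, 33 kept it and newly passed, and 52 changed sign, none of them of a called gene. With DESeq2 Slc7a11 was -0.039. With limma-voom Slc7a11 was -0.13, Hba-a1 -0.15 and Zbtb46 0.039. With library totals Id3 was 0.017 and Zbtb46 0.034. With the block Slc7a11 was -0.10, Id3 0.077, Gpx4 0.0084 and Mki67 -0.0018. Without replicates 1 and 2 of day 7 the estimates were -0.97 for Acta2, -0.50 for Aqp1, -0.023 for Cd274, -1.05 for Col1a1, -1.01 for Col6a1, -1.07 for Cxcl9, -1.19 for Flt1, 0.018 for Hbb-bt, -0.66 for Kdr, -0.31 for Pdgfrb, -1.82 for Pecam1, -0.35 for Pmp22, -0.59 for Postn, -0.71 for Rgs5, -0.41 for Timp1, -0.38 for Tnc and -0.76 for Xist. When 1 library was left out the ranges were -0.056 to 0.14 for Acsl4, -0.11 to 0.20 for Cd274, -0.62 to 0.26 for Slc7a11, -0.15 to 0.063 for Zbtb46, -0.016 to 0.43 for Sfn, -0.34 to 0.22 for Id3, -0.26 to 2.10 for Pecam1, -0.67 to 0.020 for Gpx4, -0.0071 to 0.12 for Tyr, -0.68 to 0.75 for Hba-a1 and -0.0049 to 0.11 for Mki67. These causes were not tested.

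Low counts limited the tests, as genes such as Ripk3 and Ptgs2 could not be tested. With 4 libraries on day 7 and a day that cannot be told apart from its table, the calls describe these libraries.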
